A study of Saccharum hybrid cultivar with 68 samples.

Results

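The subject is the leaf messenger RNA of the sugarcane genotype ROC22 at the middle stage of sucrose accumulation, set against the same genotype's leaf at the early stage. Its members are the 3 middle and 3 early ROC22 leaf libraries, found by their titles and by their genotype, tissue and growth phase labels. They are 6 of the 68 libraries of the series and 6 of its 36 mRNA libraries. ROC22 is a commercial sugarcane cultivar, and sugarcane cultivars are hybrids of Saccharum with many copies of each chromosome. The labels give no transgene, treatment or plant age, and all 6 libraries share the genotype, the tissue and the RNA extraction. GT86-887's leaf libraries of the same stages, 3 of each, and the 6 stem libraries of ROC22 serve below to show where the leaf of ROC22 differs. Per the series' design text, the genotypes differ in sucrose content.

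A mature sugarcane leaf is a source of sugar: it fixes carbon by C4 photosynthesis, makes sucrose, and loads it into the phloem for the stem, where it is stored as the cane ripens. MicroRNAs (miRNAs) are short RNAs that guide the cleavage or the repression of matching mRNAs, and in plants many of their targets are transcription factors that set the pace of leaf growth and ageing. The series asks about miRNAs and genes of sugar metabolism across these stages.

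Reads had been counted per assembled transcript, called a unigene, under identifiers that the files pair with no gene name. The middle libraries held 19593235 to 19895556 counts and the early libraries 21869499 to 23072130. A middle library had a count for 47938 to 49163 unigenes, and an early library for 50688 to 52354. The single highest unigene took 3.7 to 3.88% of the counts of a middle library and 3.81 to 3.95% of those of an early one. On log2(CPM + 1), where CPM is the count of a unigene relative to the library's total, middle libraries correlated with each other at 0.993 to 0.994, early libraries at 0.989 to 0.992, and middle with early libraries at 0.966 to 0.977. With ROC22 stem libraries of the same stages they correlated at 0.858 to 0.888, so each leaf library was nearer to leaf than to stem, as its label has it. No marker gene could be looked up for want of gene names. The counts of replicate libraries differed by more than sampling noise, with a chi-square per degree of freedom of 8.75 to 9.67 between middle libraries and 14.4 to 24.6 between early libraries, so none was a copy of another. The early libraries thus differed more among themselves than the middle ones. The labels do not say if each library stands for its own plant. The p-values are therefore about the scatter among the sequenced libraries, and that scatter may be technical. No label gives a sequencing or extraction date, and a batch that follows the stage cannot be told apart from the stage.

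Of 100182 unigenes, 37678 had enough counts to be tested, and these held at least 99.7% of the counts of each library. Between the early and middle stages 6744 of them changed, or 17.9%, at an adjusted p below 0.05 in edgeR's quasi-likelihood test. At the middle stage 3109 unigenes were higher (8.25%) and 3635 lower (9.65%) than at the early stage. These are called risen and fallen below. An unadjusted p below 0.05 was reached by 11459 unigenes (30.4%). The 3 middle and 3 early libraries did not overlap for 16216 unigenes (43.0%; 21.4% with the middle above and 21.7% with the middle below), among them 3078 of the risen and 3555 of the fallen ones. The median change over all tested unigenes was 0.0 on the log2 scale. In bulk leaf, fewer cells of a type and less RNA per cell cannot be told apart.

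The split between risen and fallen depended on the scaling. With library totals alone, without the TMM factors that correct for composition, 3919 unigenes were higher and 2963 lower in the middle leaf, so the higher ones made up 56.9% of the calls, against 46.1% with TMM. The number of calls dropped to 4112 without middle replicate 1, to 4474 without middle replicate 2 and to 4272 without early replicate 3. In each of the 6 fits that left out 1 library, 1514 of the risen unigenes (48.7%) and 1672 of the fallen ones (46.0%) passed again in the same direction. In counts simulated on these libraries with 200 changed unigenes, 21% of those changed 2-fold and 81% of those changed 4-fold were recovered in this contrast. With so few changed unigenes the adjustment of p is stricter than in the data, where 6744 unigenes passed. These shares are therefore not the recovery of the contrast itself. Small changes may still have been missed, and their share was not measured.

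Falls went deeper than rises. The median change of the 3109 risen unigenes was 0.953 on the log2 scale. Their lower and upper deciles were 0.49 and 2.08. The median of the 3635 fallen unigenes was -1.47, with deciles at -3.93 and -0.583. A change of at least 2-fold was found in 1452 of the risen unigenes (46.7%) and in 2490 of the fallen ones (68.5%). A change of at least 16-fold was found in 31 risen and 345 fallen unigenes, and one of at least 64-fold in 3 risen and 80 fallen. Among the 16-fold sets, 23 of the 31 risen and 249 of the 345 fallen unigenes passed in every fit that left out 1 library. These are medians over unigenes that passed, which had to change by more where counts were low.

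**Figure D1:**
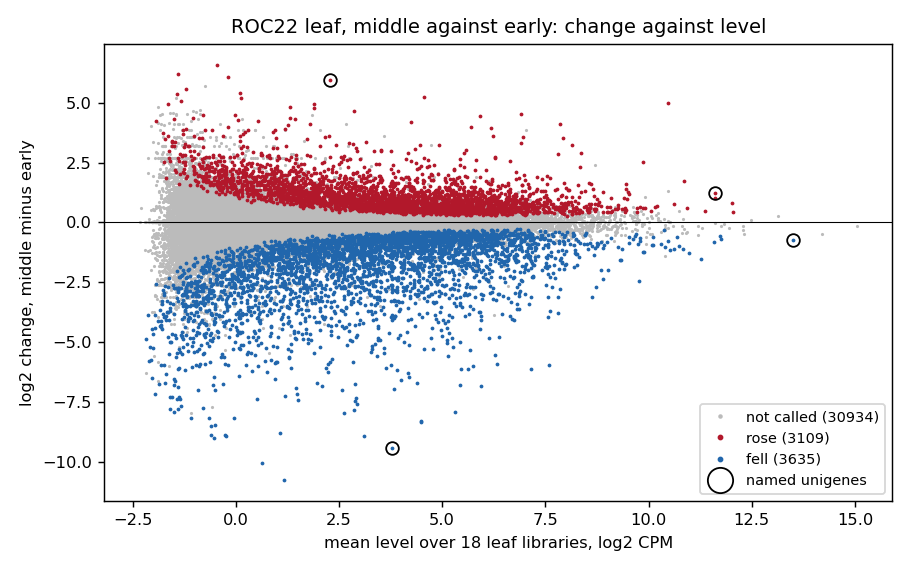
Log2 change from early to middle in ROC22 leaf (vertical axis) against the mean level over 18 leaf libraries in log2 CPM (horizontal axis), 1 point per tested unigene. Red points mark the 3109 unigenes that rose, blue points the 3635 that fell, grey points the rest, and circles the 4 named unigenes. The blue points reach further from 0 than the red ones over most levels.

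The share of unigenes called grew with their level. Ranked by the mean of the middle and early levels and cut into 4 groups of equal size, 6.07% of the lowest group changed (up to 0.812 CPM), and 14.3, 21.1 and 30.2% of the next 3 groups, the last of which began at 16.2 CPM. Among the unigenes that passed in the lowest group, the median was 2.13 for risen and -3.25 for fallen ones. In the highest group these medians were 0.704 and -1.0. The median fall was larger than the median rise in each group. A unigene's length could be worked out from its count and FPKM (a deposited value scaled by length) together. The median was 1386 bases for risen unigenes, with quartiles at 888.9 and 2052 bases, and 1036 bases for fallen ones, with quartiles at 620.9 and 1668 bases. Over all tested unigenes with a value it was 1087 bases, with quartiles at 641.8 and 1776 bases. A length was had for 96.1% of the risen, 97.4% of the fallen and 82.0% of all tested unigenes.

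The risen and fallen unigenes made up a large part of the leaf's mRNA. The risen set held 19.9, 19.6 and 19.7% of the counts of the 3 middle libraries, against 10.8, 10.8 and 9.91% of those of the 3 early libraries. The fallen set held 9.99, 10.7 and 10.7% of the counts of the middle libraries, against 21.0, 21.8 and 23.5% of those of the early libraries. The sets were chosen by this same contrast, so these shares describe their weight and test nothing. The other leaf libraries were on neither side of this contrast but shared its filter and its estimate of the spread, and the stem libraries shared neither. In GT86-887's leaf the same risen unigenes held 16.8 to 18.0% of counts at the middle and 10.7 to 11.7% at the early stage. The same fallen unigenes held 12.5 to 15.7% there at the middle and 17.0 to 21.5% at the early stage. In ROC22 stem the risen set held 10.4 to 10.8% at the middle and 8.93 to 9.12% at the early stage, and the fallen set 12.6 to 13.3% and 16.2 to 17.1%. In the late leaf libraries of ROC22 the risen set held 17.8 to 18.6% and the fallen set 13.4 to 14.0%.

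**Figure D2:**
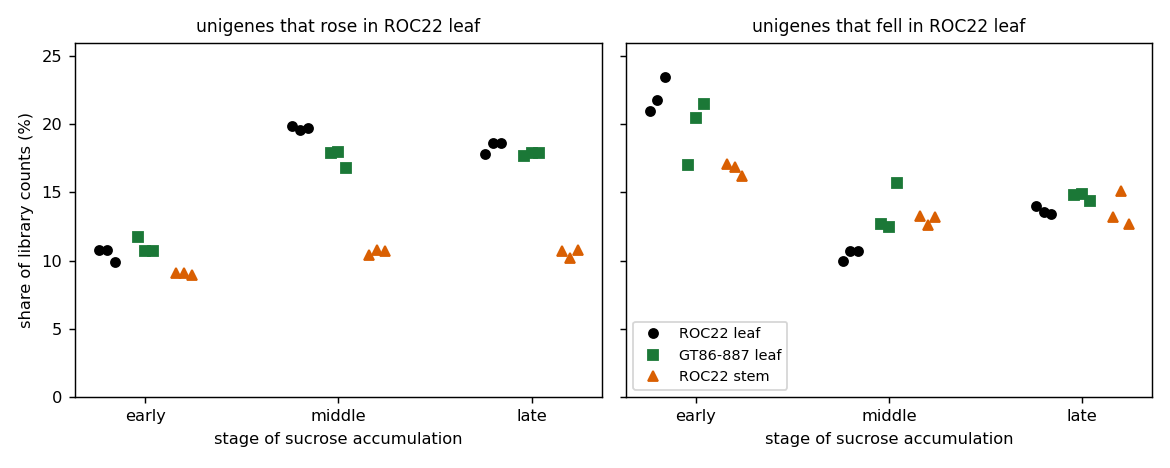
Share of a library's counts, in percent, held by the unigenes that rose (left panel) and those that fell (right panel) in ROC22 leaf, by stage. Each point is a library of ROC22 leaf, GT86-887's leaf or ROC22 stem. The early and middle ROC22 leaf libraries chose the sets; the middle points of ROC22 leaf lie near 20% on the left, and its early points between 21.0 and 23.5% on the right.

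The changes are shown here on 4 unigenes: in each direction the one with the largest log2 change among better measured unigenes and the one with the largest difference in CPM. CPM values here and below are scaled by TMM. c108705.graph_c0 had 6.1, 5.853 and 6.237 CPM in the middle libraries, against 0.0954, 0.0451 and 0.1376 CPM in the early ones. This transcript was thus nearly absent from the early leaf, with 369 counts over the 3 middle and 6 over the 3 early libraries. It rose by a log2 change of 5.945 ± 0.622 (SE; edgeR adjusted p = 2.14e-05). It rose in GT86-887's leaf as well, by 4.957 ± 0.616 (adjusted p = 9.31e-05), and the difference between the genotypes, 0.9885 ± 1.07, did not pass (adjusted p = 0.713). In ROC22 stem its change was 0.5661 ± 0.406 (adjusted p = 0.458), and the change in leaf was larger by 5.392 ± 0.788 (adjusted p = 7.85e-05). Its late leaf level was 12.21 ± 3.311 CPM (SD, n = 3).

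c141033.graph_c0 had 5580, 5241 and 5131 CPM in the middle libraries, against 2638, 2252 and 1873 CPM in the early ones, and all middle libraries lay above all early ones. It took 0.546% of middle and 0.216% of early counts and rose by 1.238 ± 0.206 (SE; edgeR adjusted p = 0.000846). In GT86-887's leaf it had 4770 ± 1179 CPM at the middle and 1560 ± 203.4 CPM at the early stage (SD, n = 3 each), a rise of 1.612 ± 0.208 (adjusted p = 0.000126). In ROC22 stem it was low, at 67.73 ± 4.707 CPM at the middle and 108.0 ± 21.5 CPM at the early stage, and the leaf's change was larger than the stem's by 1.905 ± 0.468 (adjusted p = 0.0111). The late leaf of ROC22 had 2239 ± 42.86 CPM, a level near that of the early leaf, so the middle stage was the peak of this unigene among the 3 stages.

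c117431.graph_c1 had 0.05, 0.0 and 0.2436 CPM in the middle libraries, against 9.302, 73.75 and 131.5 CPM in the early ones. It was almost lost, with 6 counts over the middle and 4696 over the early libraries, and fell with a log2 change of -9.418 ± 1.64 (SE; edgeR adjusted p = 0.00114). The early libraries themselves ranged widely, and replicate 1 held far less of this unigene than replicates 2 and 3. GT86-887's leaf libraries had 0.4419, 0.3312 and 6.143 CPM at the middle and 0.2159, 8.431 and 17.14 CPM at the early stage, with overlapping libraries and a change of -1.904 ± 1.09 (adjusted p = 0.242). The difference between the genotypes was -7.513 ± 2.01 (adjusted p = 0.094). In ROC22 stem it had at most 0.2421 CPM in any middle or early library. It is short, at 286.2 bases by its count and FPKM.

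c122085.graph_c0 was among the unigenes with the most counts in leaf, at 6003, 8062 and 6358 CPM in the middle libraries, against 12020, 11240 and 10460 CPM in the early ones. It took 0.699% of all middle and 1.08% of all early counts and fell with a log2 change of -0.7236 ± 0.168 (SE; edgeR adjusted p = 0.00706). The late leaf had 12610 ± 924.7 CPM (SD, n = 3), so the middle stage was the lowest of the 3. The level in GT86-887's leaf was 9973 ± 1860 CPM at the middle and 10820 ± 1951 CPM at the early stage, a change of -0.1176 ± 0.167 (adjusted p = 0.668), and the difference between the genotypes was -0.6061 ± 0.236 (adjusted p = 0.231). In ROC22 stem it fell to 83.14 ± 46.41 CPM at the middle, against 611.6 ± 212.8 CPM at the early stage, and the leaf and stem changes differed by 2.148 ± 0.553 (adjusted p = 0.0153), the fall being deeper in stem. This difference did not pass without stem early replicate 1 or stem middle replicate 2 (adjusted p up to 0.0524).

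**Figure D3:**
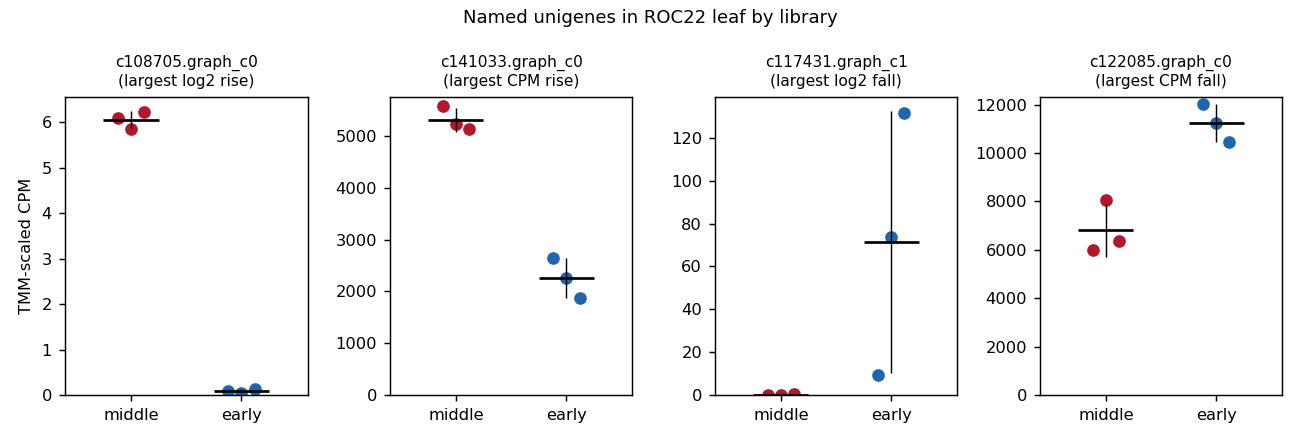
TMM-scaled CPM of the 4 named unigenes in the 3 middle (red, left) and 3 early (blue, right) ROC22 leaf libraries, each panel with its own linear axis from 0. Points are libraries, the horizontal bar is the mean and the vertical line 1 SD either way, not drawn below 0. In all 4 panels the middle and early libraries do not overlap, and the early libraries of c117431.graph_c1 spread from 9.302 to 131.5 CPM.

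A group of transcripts was counted in the early leaf and not in the middle leaf. For 93 unigenes of the whole table, no count was found in any middle library while the early libraries held 30 counts or more together, with a median of 48. The reverse, no count in the early and 30 or more in the middle libraries, was met by 2 unigenes. Of the 93, 35 were tested and 31 fell. A count of 0 over 3 libraries allows up to 3 counts, and covers counting error only, so these unigenes were under that limit in the middle leaf and not shown to be absent. Together the 93 had 68.11, 101.7 and 172.8 CPM in the early ROC22 leaf libraries, and 2.208 to 4.373 CPM in the late ones, which took no part in their choice. The sum in GT86-887's leaf was 5.365, 3.234 and 14.81 CPM at the middle and 9.23, 39.51 and 51.06 CPM at the early stage, where 1 middle library lay above the lowest early one. In ROC22 stem they had at most 4.561 CPM in any library of the 3 stages.

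The 345 unigenes that fell at least 16-fold behaved in a like way at a higher level. Their summed level was 176.4, 231.2 and 513.8 CPM in the middle libraries, against 5545, 10240 and 14690 CPM in the early ones. The sum in early replicate 3 was far above that in replicate 1. The unigenes were chosen by their fall between these libraries, so the gap between the stages follows from that choice. For 179 of the 345 (51.9%) replicate 3 was the highest early library, for 104 replicate 2 and for 62 replicate 1. Among the 3290 less deeply fallen unigenes replicate 3 was the highest for 45.9%. The late leaf libraries of ROC22 had 528.9 to 703.2 CPM, on the side of the middle ones. In GT86-887's leaf the same unigenes summed to 885.9, 1046 and 3407 CPM at the middle and 1994, 5841 and 7921 CPM at the early stage, and these libraries overlapped. In ROC22 stem they summed to 344.7 to 590.2 CPM at the middle and 834.2 to 1148 CPM at the early stage. The 345 came under 332 different identifier numbers. In the early and middle leaf of both genotypes the sum rose from replicate 1 to replicate 2 to replicate 3, but not in the late leaf. What part cell make-up, library quality or a batch shared by replicate number had in the early spread and in this order was not tested.

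The 31 unigenes that rose at least 16-fold summed to 517.2, 847.8 and 750.9 CPM in the middle libraries, against 26.95, 30.04 and 31.44 CPM in the early ones. In the late ROC22 leaf libraries the sum was 3812 to 5542 CPM, but 96.1% of it came from 3 unigenes. Taken 1 by 1, 4 of the 31 were higher and 1 lower in late than in middle leaf at an adjusted p below 0.05 (edgeR), while 26 were higher in late than in early leaf. Their sum in GT86-887's leaf was 466.8, 1780 and 1595 CPM at the middle and 161.3, 134.1 and 110.9 CPM at the early stage, and 3971 to 6043 CPM at the late stage. In ROC22 stem they had 878.3 to 1564 CPM at the middle and 628.2 to 832.0 CPM at the early stage, at least 95.1% of it from 3 unigenes. The early level in ROC22 leaf was low by the choice of the unigenes.

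Over the whole sets, the median change at the late stage lay on the same side as at the middle stage. These comparisons share libraries and are given side by side only. The risen set had a median change of 0.953 from early to middle, -0.137 from middle to late and 0.791 from early to late. The fallen set had medians of -1.47, 0.215 and -1.25. The late libraries were on neither side of the contrast, though the late leaf ones shared its filter and estimate of the spread. At the late stage the median leaf minus stem difference was 0.966 for the risen set, 0.47 for the fallen set and 0.144 over all tested unigenes. At an adjusted p below 0.05, 1812 of the 3109 risen unigenes (58.3%) were higher in late leaf than in late stem. Another 575 of them (18.5%) were lower. Of the 3635 fallen ones 1310 were higher and 970 lower. Of all tested unigenes 31.3% were higher and 24.5% lower. The median level was 12.5 CPM for risen and 9.92 CPM for fallen unigenes, against 3.48 CPM over all tested. Between the early and middle stages the share called grew with level, and the shares in late leaf and stem were not compared at equal levels.

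The same stages in GT86-887's leaf, measured in libraries of their own, gave 6871 changed unigenes, or 18.2%, with 3699 higher and 3172 lower, and 32.8% with an unadjusted p below 0.05. The filter and the estimate of the spread were shared with the ROC22 contrast, so the calls of the genotypes are not independent. Of the 3109 unigenes risen in ROC22, 1617 rose there too, which is 52.0% of the ROC22 list and 43.7% of GT86-887's list, where 9.82% of all tested unigenes rose. Of the 3635 fallen, 1148 fell there too, 31.6% of the ROC22 list and 36.2% of GT86-887's list, where 8.42% of all tested unigenes fell. A change in the opposite direction was called for 27 of the risen and 23 of the fallen unigenes. The sign agreed for 88.9% of the risen and 88.6% of the fallen unigenes, with medians in GT86-887's leaf of 0.643 and -0.68. The medians in ROC22 were larger, at 0.953 and -1.47, but the unigenes were chosen there. Across all 37678 unigenes, which are not independent of each other, the changes in the genotypes correlated with r = 0.425 and rho = 0.46. The count of calls in GT86-887's leaf dropped to 4084 without early replicate 2, to 4440 without early replicate 3, and to 1133 when the spread was estimated from its own 6 libraries. With those 1133 calls 497 of the 3109 risen and 300 of the 3635 fallen ROC22 unigenes were shared, which were 76.8 and 61.7% of the risen and fallen lists of GT86-887's leaf. With library totals alone the majority turned, with 2838 higher and 4061 lower in GT86-887's middle leaf, or 41.1% higher against 53.8% with TMM.

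The change from early to middle differed between the genotypes for 243 unigenes (0.645%), with 119 higher (0.316%) and 124 lower (0.329%) in ROC22, while an unadjusted p below 0.05 was reached by 5759 (15.3%). Among them were 77 of the risen set, 74 of which rose more in ROC22, and 85 of the fallen set, all 85 of which fell more in ROC22. The sets were chosen in ROC22, which favours that side. The count rested on single libraries. It was 127 without ROC22 early replicate 2, 55 without early replicate 3, and 67, 50 and 81 without middle replicates 1, 2 and 3. It was 67 without GT86-887's early replicate 1, 69 without early replicate 2, 921 without middle replicate 1 and 676 without middle replicate 2. With library totals alone 293 were higher and 87 lower in ROC22, or 77.1% higher against 49.0% with TMM, and the median difference of all tested unigenes was 0.167 against -0.0152. In counts simulated with 200 changed unigenes, 5% of 2-fold and 60% of 4-fold differences were recovered here. A p above the threshold thus does not show that the genotypes changed alike.

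**Figure D4:**
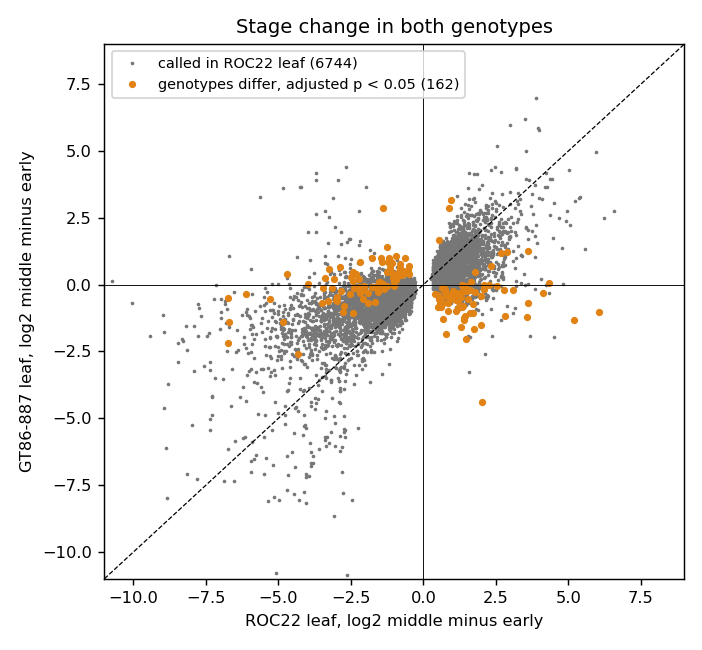
Log2 change from early to middle in GT86-887's leaf (vertical axis) against that in ROC22 leaf (horizontal axis) for the 6744 unigenes called in ROC22 leaf, with the diagonal dashed. Orange points are the 77 risen and 85 fallen unigenes whose change differed between the genotypes at an adjusted p below 0.05. Most points lie in the quadrants of equal sign and nearer to the horizontal axis than to the vertical one.

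In the stem of ROC22, 3116 of 36199 tested unigenes changed between the stages (8.61%), 1238 of them higher (3.42% of those tested) and the rest lower (5.19%), while an unadjusted p below 0.05 was reached by 22.6%. Of the risen leaf unigenes 2808 were tested in stem, where 242 rose (8.62%) and 103 fell. Of the fallen ones 2940 were tested, where 488 fell (16.6%) and 73 rose. The changes in leaf and stem correlated with r = 0.181 and rho = 0.185 over 32184 unigenes. The change differed between leaf and stem for 2940 of 42119 unigenes (6.98%), 1576 higher (3.74%) and 1364 lower (3.24%) in leaf, with 8294 at an unadjusted p below 0.05 (19.7%). These held 890 of the risen set, 888 of them with the larger rise in leaf, and 932 of the fallen set, 885 of them with the deeper fall in leaf. The sets were chosen in ROC22 leaf, which favours that side. With library totals alone the higher ones were 42.4% against 53.6% for this difference, and 67.8% against 39.7% for the stem change, where the median of all tested unigenes was 0.158 against 0.0. The stem count was 1929, 1844 and 1647 without stem early replicates 1, 2 and 3, and 2012, 1497 and 1608 without stem middle replicates 1, 2 and 3.

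Since unigenes carry no name, the only handle on function in the files is the degradome table, which pairs unigenes with miRNAs. A degradome library sequences the ends of cut, uncapped RNA, such as those a miRNA leaves on its target. The table holds 871 pairs over 752 unigenes. Entries of families that are conserved among plants are known by their targets: miR156 for SPL factors, miR172 for AP2-like factors, miR160 and miR167 for auxin response factors, miR164 for NAC factors, miR396 for growth-regulating factors, miR393 for auxin receptors, miR397 for laccases, and miR827 for SPX-domain proteins of phosphate transport and signalling. The paired unigenes were not checked to be such genes, and family roles were not checked for each entry, some of which may be the opposite strand of the better known miRNA. Some pairs of called unigenes rest on 1 or 2 tags over all 8 degradome libraries.

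The mature sequences of the entries whose paired unigenes carry the results below are given from the deposited small RNA table, 5′ to 3′ with T for U, with the seed, bases 2 to 8, in capitals.
miR172-y: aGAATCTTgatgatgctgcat
miR827-y: tTAGATGAccatcagcaaaca
miR827-z: tTAGATGAccatcaacaaaca
miR156-x: tTGACAGAagagagtgagcac
miR156-y: tGCTCACTgctctctctgtcatc
miR160-x: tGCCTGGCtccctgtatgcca
miR164-x: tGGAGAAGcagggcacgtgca
miR167-x: tGAAGCTGccagcatgatctga
miR171-y: tGAGCCGAaccaatatcactc
miR393-x: cTCCAAAGggatcgcatttt
miR396-x: tCCACAGGctttcttgaactg
miR396-z: tCCACAGGctttcttgaacgg
miR528-x: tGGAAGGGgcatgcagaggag
miR535-x: tGACAACGagagagagcacgc
The miR827 entries share 1 seed, as do the miR396 entries, and in each family 2 tested unigenes were paired with both entries, of which 1 passed.

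Of the 752 paired unigenes 709 were tested, and 87 rose and 100 fell in ROC22 leaf. This is 26.4% called, against 17.9% of all tested unigenes. The paired unigenes were also better measured: 62.3% of them lay in the highest of the 4 level groups, where 30.2% of all unigenes were called, so their share of calls is no result about miRNA targets. Their median change was -0.0176, against 0.0 over all. With library totals alone the split turned, to 110 higher and 74 lower. The count called fell to 118 without middle replicate 1 and to 122 without early replicate 3. Among the 112 tested unigenes paired with a conserved family, 20 rose and 10 fell (26.8%), with a median of 0.0904. Of 57 paired with families that target transcription factors 12 rose and 7 fell, and of 28 paired with nutrient and copper families 6 rose and 2 fell. Of 11 paired with auxin pathway families 2 rose and 3 fell, of 26 paired with grass families 1 rose and 2 fell, and the 4 paired with small RNA machinery families, at -0.5033 to 0.1604, did not pass. These lists overlap, and 50.0 to 76.9% of each lay in the highest level group. Of the 30 conserved family calls, 16 passed in all 13 alternative fits and none reversed.

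Of 10 tested unigenes paired with miR172-y, 6 rose, by 0.4119 to 0.7637 on the log2 scale, and none fell, against 8.25% of all tested unigenes that rose and 14.7% of those in the highest level group, which held 9 of the 10. For 7 of the 10 every middle library lay above every early one, as for 21.4% of all tested unigenes. The one with the most counts had 540.0, 460.8 and 492.0 CPM in the middle libraries, against 328.1, 302.8 and 286.1 CPM in the early ones, a rise of 0.7029 ± 0.168 (SE; edgeR adjusted p = 0.00834). It rose in GT86-887's leaf too, by 0.9544 ± 0.168 (adjusted p = 0.00133). Another had 165.6, 152.0 and 155.5 CPM in the middle libraries, against 128.6, 116.0 and 111.0 CPM in the early ones (0.4119 ± 0.0917, adjusted p = 0.00557), and no middle library overlapped an early one in either case. With no filter on low counts this second rise did not pass (adjusted p = 0.0963). The one of the 6 with the most tags in the early leaf degradome library of ROC22, 103, had 47.2, 32.71 and 40.01 CPM in the middle and 24.57, 29.9 and 16.15 CPM in the early libraries. Its rise of 0.7637 ± 0.226 (adjusted p = 0.0274) did not pass without early replicate 1, early replicate 3, middle replicate 1 or middle replicate 3 (adjusted p up to 0.126). Another of the 6, at 0.5425 ± 0.134, did not pass without middle replicate 2 (adjusted p = 0.0582). The 4 that did not pass changed by -0.1098 to 0.212. Among these was the unigene with the most tags of the 10 over all 8 degradome libraries, 1159, which had 24.9, 25.38 and 28.95 CPM in the middle and 23.66, 26.3 and 25.41 CPM in the early libraries (0.07194 ± 0.18, adjusted p = 0.851). Of the 10, 4 rose and 1 fell in GT86-887's leaf.

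Of 12 unigenes paired with miR827 entries 5 rose and none fell. All tested unigenes rose in 8.25% of cases, and those of the highest level group, which held 10 of the 12, in 14.7%. The middle libraries lay above the early ones without overlap for 6 of the 12 and below for 1, against 21.4% and 21.7% of all tested unigenes. The largest change among the conserved families belonged to the one paired with miR827-y and miR827-z. It had 487.7, 1156 and 714.9 CPM in the middle libraries, against 183.7, 76.27 and 53.76 CPM in the early ones, a rise of 2.911 ± 0.59 (SE; edgeR adjusted p = 0.00308). The middle libraries were all higher, though they ranged widely, and the late leaf had 213.2 ± 142.6 CPM (SD, n = 3). In GT86-887's leaf it had 527.5 ± 302.1 CPM at the middle and 208.5 ± 84.36 CPM at the early stage (1.339 ± 0.559, adjusted p = 0.106), with no difference between the genotypes that passed (adjusted p = 0.354). No degradome tag of this pair was listed in either ROC22 leaf degradome library. A tight case was paired with miR827-y, at 614.1, 595.6 and 604.4 CPM in the middle libraries, against 409.7, 411.9 and 405.7 CPM in the early ones (0.5637 ± 0.128, adjusted p = 0.0062). This pair had 4 tags over all 8 degradome libraries, and that of the largest change 42. The others rose by 0.9125, 0.6047 and 0.382, with 1, 13 and 3 such tags. The last of these did not pass in any fit that left out 1 library (adjusted p up to 0.137) nor with no filter (adjusted p = 0.225). The 7 that did not pass changed by -1.126 to 0.239.

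Among unigenes paired with miR156, 2 rose, 1 fell and 12 did not pass. The 3 calls among 15 compare with 17.9% of all tested unigenes and 30.2% of the highest level group, which held 86.7% of the 15. The one paired with miR156-x at the highest CPM had 6685, 5901 and 6399 CPM in the middle libraries, against 4079, 3008 and 3774 CPM in the early ones, and rose by 0.8056 ± 0.202 (SE; edgeR adjusted p = 0.0112). It rose in GT86-887's leaf by 1.397 ± 0.204 (adjusted p = 0.000336). Without early replicate 2 the ROC22 rise was 0.6888 and did not pass (adjusted p = 0.0572). The other miR156-x unigene rose by 0.4404 and passed without middle replicate 2 but not when any other of the 6 libraries was left out (adjusted p up to 0.136). In ROC22 stem its change was the opposite, at -0.4873 ± 0.13 (adjusted p = 0.0285). The fallen one was paired with miR156-y and had 145.7, 158.5 and 124.6 CPM in the middle libraries, against 379.0, 331.1 and 477.9 CPM in the early ones (-1.47 ± 0.249, adjusted p = 0.000941). Its late leaf level was 47.04 ± 11.03 CPM (SD, n = 3). Of 7 unigenes paired with miR535 entries 1 passed. Paired with miR535-x, it had 361.5, 411.7 and 477.6 CPM in the middle and 1380, 1286 and 1094 CPM in the early libraries and fell with a change of -1.588 ± 0.203 (adjusted p = 0.000114). In ROC22 stem it fell as well, with a change of -1.226 ± 0.159 (adjusted p = 0.000182), while in GT86-887's leaf its change was -0.311 ± 0.199 (adjusted p = 0.295) and the difference between the genotypes had an adjusted p of 0.0505. The pair had no tag in either ROC22 leaf degradome library. miR535-x itself had no count in the early and late small RNA libraries of ROC22 leaf.

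Falls were also found beside miR160 and miR396. The one unigene paired with miR160-x had 3.0, 3.099 and 2.388 CPM in the middle libraries, against 5.152, 12.85 and 28.72 CPM in the early ones, and fell with a change of -2.459 ± 0.509 (SE; edgeR adjusted p = 0.00347). The middle libraries were alike and the early ones ranged widely, with replicate 3 the highest. Without that replicate the change was -1.676 and still passed. Its pair had 246 tags in the early leaf degradome library of ROC22 and 31 in the other ROC22 leaf degradome library, whose title carries the late code and whose growth phase label names the middle stage. Its change in GT86-887's leaf was 0.4512 ± 0.5 (adjusted p = 0.571), and the difference between the genotypes had an adjusted p of 0.0693. Of 3 unigenes paired with miR396 entries 1 passed, where 17.9% of all tested unigenes and 30.2% of the highest level group were called. It was paired with both entries and had 5.9, 4.918 and 5.263 CPM in the middle and 13.26, 20.43 and 15.37 CPM in the early libraries (-1.608 ± 0.204, adjusted p = 0.000107). It fell in ROC22 stem too (-1.04 ± 0.156, adjusted p = 0.000642). The other two, at 0.5599 ± 0.258 and -0.2558 ± 0.15, did not pass in ROC22 leaf.

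Of all tested unigenes 9.65% fell, and 15.5% of those in the highest level group. Counts over so few unigenes as in this paragraph are no result about a family. Of 4 unigenes paired with miR164 entries, 3 of them in that group, 2 fell, both with miR164-x. One had 39.1, 33.35 and 47.85 CPM in the middle and 75.13, 85.43 and 105.4 CPM in the early libraries (-1.145 ± 0.219, SE; edgeR adjusted p = 0.00217). It did not stay low: the late leaf had 507.7 ± 24.63 CPM (SD, n = 3), far above both earlier stages. The other had 9.851, 8.902 and 15.84 CPM in the middle and 36.21, 33.65 and 53.49 CPM in the early libraries (-1.833 ± 0.363, adjusted p = 0.00265). Neither of these pairs had a tag in a ROC22 leaf degradome library. Of 2 unigenes paired with miR171-y, of a family known for GRAS factors, 1 fell and had 68.55, 62.51 and 70.66 CPM in the middle and 134.9, 110.1 and 126.1 CPM in the early libraries (-0.8792 ± 0.132, adjusted p = 0.000406). The other had 16.4, 15.44 and 15.35 CPM in the middle and 11.54, 13.85 and 12.16 CPM in the early libraries. Its change of 0.3296 ± 0.144 did not pass (adjusted p = 0.132), while it rose in GT86-887's leaf (0.4745 ± 0.144, adjusted p = 0.0314).

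Of all tested unigenes 8.25% rose, and 14.7% of those in the highest level group. On the risen side stood 1 of 3 unigenes paired with miR167 entries. Paired with miR167-x, it had 88.66, 77.22 and 89.08 CPM in the middle and 54.76, 50.65 and 45.14 CPM in the early libraries (0.7599 ± 0.114, SE; edgeR adjusted p = 0.000402), and a rise in GT86-887's leaf (0.815 ± 0.114, adjusted p = 0.000242). The one paired with miR159-x, of a family known for MYB factors, had 616.6, 624.5 and 629.0 CPM in the middle and 429.3, 414.1 and 417.0 CPM in the early libraries (0.5693 ± 0.134, adjusted p = 0.00779). The replicates of this unigene were close together at both stages. In ROC22 stem it went the other way, with a change of -1.332 ± 0.319 (adjusted p = 0.016). Of 2 unigenes paired with miR393-x, 1 was the sole conserved family unigene whose change differed between the genotypes at this threshold. It had 98.01, 87.94 and 94.1 CPM in the middle and 63.3, 64 and 71.98 CPM in the early ROC22 libraries, a rise of 0.4908 ± 0.133 (adjusted p = 0.0173). In GT86-887's leaf it had 97.81 ± 3.724 CPM at the middle and 129.5 ± 11.29 CPM at the early stage (SD, n = 3 each), a fall with a change of -0.4045 ± 0.133 (adjusted p = 0.0446), and the difference was 0.8953 ± 0.188 (adjusted p = 0.0413). The early means were 66.43 ± 4.82 CPM in ROC22 and 129.5 CPM in GT86-887's leaf, and the middle means 93.35 ± 5.073 and 97.81 CPM. The difference kept its direction in all alternatives, but it did not pass in 10 of the 12 fits that left out a library (adjusted p up to 0.124) nor on the contrast's own libraries (adjusted p = 0.0593). The fall in GT86-887's leaf did not pass in any of the 6 fits that left out one of its libraries (adjusted p up to 0.139). The rise in ROC22 did not pass without early replicate 1, early replicate 2, middle replicate 1 or middle replicate 3 (adjusted p up to 0.0735). No tag of this miR393-x pair was listed in either ROC22 leaf degradome library.

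Other calls among the conserved families were less firm. Of all tested unigenes 17.9% were called, and 30.2% of those in the highest level group. The counts of calls per family given here are therefore no result about the family. Of 6 unigenes paired with miR528-x, of a grass family known for copper proteins, 1 fell. It had 0.6, 0.4427 and 0.3898 CPM in the middle and 3.482, 1.804 and 2.615 CPM in the early libraries (-2.449 ± 0.629, edgeR adjusted p = 0.0129), and fell likewise in GT86-887's leaf (-2.256 ± 0.652, adjusted p = 0.0252). Without middle replicate 2 or 3 it did not pass in ROC22 (adjusted p up to 0.057). The other 5 changed by -0.3872 to 0.3976 and did not pass, among them one at a far higher level, with 474.0 ± 44.39 CPM at the middle and 359.8 ± 36.67 CPM at the early stage (SD, n = 3 each). Of 4 unigenes paired with miR397 entries, 1 with miR397-y rose and 1 with miR397-z fell, by 0.8948 ± 0.264 (adjusted p = 0.0271) and -0.5052 ± 0.166 (adjusted p = 0.0452). The first passed only without early replicate 2 or middle replicate 3 among the fits that left out a library, and the second in none of them. With no filter neither passed (adjusted p = 0.0514 and 0.0977), and with library totals alone the second did not (adjusted p = 0.128). The pair of the second had no tag in either ROC22 leaf degradome library. Of 3 unigenes paired with miR166, known for HD-ZIP factors, 1 rose, by 0.488 ± 0.115, and of 6 paired with miR169, known for NF-Y subunits, 1 rose, by 0.8491 ± 0.257. The miR166 call was lost without middle replicate 1 (adjusted p = 0.0564) and with no filter (adjusted p = 0.124), and the miR169 call without early replicate 1 or 3 or middle replicate 2 or 3 (adjusted p up to 0.153). For miR530, 1 of 13 rose (0.4665 ± 0.138) and 1 fell (-0.5483 ± 0.161), of which the risen one passed only without middle replicate 2 (adjusted p up to 0.126 otherwise) and the fallen one did not pass without early replicate 1, middle replicate 1 or middle replicate 2 (adjusted p up to 0.116).

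**Figure D5:**
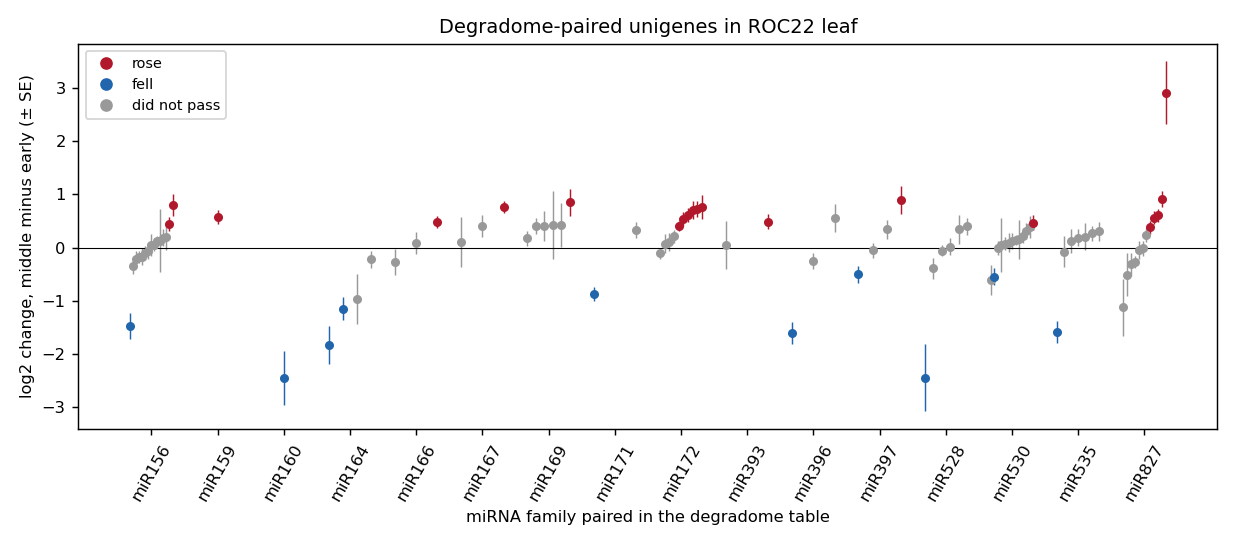
Log2 change from early to middle in ROC22 leaf, with 1 SE either way, of unigenes paired with the 16 conserved families that had at least 1 call, 1 point per tested unigene and sorted by change within a family. Red points rose, blue points fell and grey points did not pass. The miR172 column holds 6 red and no blue points, and the highest point is the miR827 unigene at 2.911.

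No small RNA library of the middle stage was used here, so miRNA levels are given for the late and early stages. Of 22 entries with a called unigene, the 3 late ROC22 leaf libraries lay below the 3 early ones for 10 and above them for 1. For 9 they overlapped, and 2, miR530-y and miR535-x, had no count in these libraries. Of 12 entries whose called unigenes rose, 6 were lower late and none higher, and of 10 whose called unigenes fell, 4 were lower and 1 higher. How many of all miRNA entries were lower late was not counted, so these counts are no result about these entries. Every value is a share of 1 total, of which miR166-y alone had 514500 to 673800 CPM early and 642000 to 707600 CPM late. As shares of the counts of all miRNA entries, miR172-y had 78.81, 38.4 and 46.0 CPM in late ROC22 leaf, against 124.9, 96.4 and 95.27 CPM in early leaf, so all late libraries were lower. Late libraries were lower too for miR396-x, whose called unigene fell, at 29890, 19860 and 27940 CPM late and 54360, 39170 and 49030 CPM early. For miR164-x the order was the other way, with 832.5, 1116 and 667.5 CPM late and 393.1, 341.6 and 508.8 CPM early. The libraries overlapped for miR160-x, at 5034, 7635 and 5932 CPM late and 6806, 7366 and 7831 CPM early, and for miR827-y, at 342.5, 195.2 and 1447 CPM late and 361.9, 184.4 and 313.8 CPM early. These values were not tested here.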

How the data were processed

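Total RNA of leaf and stem was extracted with Trizol, per the labels' protocols. Per the file headers, the authors deposited a whole-number count and an FPKM value per unigene and library, and a count, a sequence and a TPM value per miRNA entry, from small RNA of 18 to 30 nt. The degradome tag numbers deposited by the authors come with no replicate and no cleavage site. For the aligner, assembly, counting program, strand setting and target caller, no name is given in the sources used here. Reads of near-identical unigenes may thus be split between them. FPKM served only to work out lengths, where a unigene had at least 20 counts, and the TPM values deposited by the authors were not used.

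The counts were tested here with edgeR 4.0.16 in R 4.3.3: TMM scaling, filterByExpr at its default of 10 counts, 1 coefficient per genotype and stage over 18 leaf libraries (18 stem libraries for stem, 36 for leaf against stem), the quasi-likelihood F-test, and adjustment by Benjamini-Hochberg over all unigenes tested. Calls have an adjusted p below 0.05. The test was checked on simulated counts with 200 changed unigenes. CPM of unigenes is TMM-scaled.

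The 4 named unigenes are, in each direction and among called unigenes whose middle and early libraries do not overlap, the one with the largest log2 change above the median level and the one with the largest CPM difference. Degradome-paired unigenes are named by their miRNA. The contrast, its lists and its tests were chosen with earlier results of these data known. DESeq2 1.42.0, other scaling and filters, a replicate term, fits to the contrast's own libraries and fits without each library were tried as alternatives. Gene lists by name could not be matched and gave no result.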

Additional observations from a re-analysis of the deposited data

Results flagged for a closer look

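The change from early to middle differed between the leaf of ROC22 and GT86-887's leaf for 243 unigenes, by the test of the difference itself. In ROC22 it differed between leaf and stem for 2940 unigenes. For 3 of the named unigenes the leaf and stem changes of ROC22 differed: the log2 difference, leaf minus stem, was 5.39 for c108705.graph_c0, 1.91 for c141033.graph_c0 and 2.15 for c122085.graph_c0. For the called one of 2 unigenes paired with miR393-x the change in ROC22 leaf minus that in GT86-887's leaf was 0.895. With 3 libraries in each group, single libraries were not screened as outliers.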

How the results depend on the processing

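No log2 change or difference that passed in the fit described above reversed; the uncalled change of c122085.graph_c0 in GT86-887's leaf was -0.2719 to 0.006709 when a library was left out, above 0 without middle replicate 2 alone. The majority of calls turned with library totals alone in ROC22 leaf, GT86-887's leaf, ROC22 stem, the paired unigenes and the differences between genotypes and between tissues, as given with those results. Changes of degradome-paired unigenes in GT86-887's leaf and ROC22 stem, other than the miR393-x one in GT86-887's leaf, were not recomputed. With RLE scaling every count was within 1.5 times its main value. For ROC22 leaf the counts of calls were 6748 with RLE scaling, 6882 with library totals alone, 7218 with no filter, 6685 with at least 1 CPM in 3 libraries, 7821 with DESeq2 and 10075 with the contrast's own 6 libraries, and 4112 to 5319 when a library was left out. For degradome-paired unigenes the count was 289 with the contrast's own libraries and 118 to 144 when a library was left out. For the difference between the genotypes it was 380 with library totals alone, 2899 with no filter, 1300 with DESeq2, 35 with the contrast's own libraries and 50 to 921 when a library was left out; the cause was not tested. GT86-887's leaf gave 1133 with its own libraries and 4084 to 7270 when a library was left out. ROC22 stem gave 6655 and 1497 to 2012, and leaf against stem 6197 and 1971 to 2503. Calls on the 4 named unigenes in ROC22 leaf passed in all 13 alternatives, while for c117431.graph_c1 the difference between the genotypes passed with DESeq2 (adjusted p = 0.0319), with the replicate block (0.00621), with no filter and without GT86-887's middle replicate 1. Its change in GT86-887's leaf passed with the replicate block (0.0351), with no filter and without GT86-887's middle replicate 3 (0.0379), and its leaf and stem difference with DESeq2 (0.0113), the replicate block (0.0452) and no filter. With no filter the genotype difference of c122085.graph_c0 passed (0.0172). For the miR393-x unigene the genotype difference did not pass with the replicate block (0.0509), nor its change in GT86-887's leaf with the block (0.0599), no filter (0.176) or that leaf's own libraries (0.135). The labels do not say if the replicate numbers of the titles pair the libraries, and deviations from means of 3 libraries cannot settle it. Same-numbered middle and early ROC22 leaf libraries deviated together with correlations of 0.0675, -0.0387 and 0.0907, and middle replicate 2 did not correlate best with its own number. In GT86-887's leaf these correlations were 0.0791, 0.0111 and 0.212. The summed level of the 345 unigenes that fell at least 16-fold did follow the number. It rose from replicate 1 to 2 to 3 in the early and middle leaf of both genotypes, but not in the late leaf. With the replicate block the counts were 6620 for ROC22 leaf, 184 for degradome-paired unigenes, 6610 for GT86-887's leaf, 2501 for ROC22 stem, 321 for the difference between the genotypes and 2810 for that between leaf and stem.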

Other observations

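Some entries outside the conserved families were paired with many unigenes. Of 87 tested unigenes paired with miR2673-z, 9 rose and 19 fell in ROC22 leaf, and of 22 paired with miR1866-y 2 rose and 6 fell. Over all tested unigenes 8.25% rose and 9.65% fell; in the highest level group, which held 79.3% and 77.3% of these unigenes, 14.7% rose and 15.5% fell. Of 36 paired with miR2102-x 4 rose and 5 fell, of 15 paired with miR8015-x 2 rose and 1 fell, and of 14 paired with miR5653-z 1 fell. Among 3075 identifier numbers that hold 2 or more tested unigenes, 190 held at least 2 that changed: in 50 all of these rose, in 118 all fell, and in 22 they went both ways. How often unigenes of different numbers would agree was not worked out, so these counts are no result about related transcripts. The split between rises and falls depends on the scaling, as given above.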
